A study of Mus musculus with 3 samples.

Results

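The INK4 and CIP/KIP families are the inhibitors of cyclin-dependent kinases (CDKs). The 7 genes were taken by symbol, through their Ensembl identifiers, from the 50686 genes of an RNA-seq count table. They are the INK4 genes Cdkn2a, Cdkn2b, Cdkn2c and Cdkn2d and the CIP/KIP genes Cdkn1a, Cdkn1b and Cdkn1c. INK4 proteins bind CDK4 and CDK6 and block their pairing with D-type cyclins, whereas CIP/KIP proteins bind CDK2 complexes and also associate with CDK4/6 complexes. Blocking these kinases keeps the RB pocket proteins active and holds cells in G1. Cdkn2a encodes the INK4 protein p16Ink4a and, from a separate first exon and in another reading frame, p19Arf, which restrains Mdm2 and so stabilizes p53. In BCR::ABL1-transformed lymphoid cells this locus is well known as a barrier to transformation.

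Poly(A) RNA was sequenced from 3 stable lines derived from bone marrow of C57BL/6 mice, numbered line 1 to line 3 after the replicate in the sample record. Each line carried homozygous kinase-inactive Cdk6 K43M (Cdk6 KM/KM) and was transformed with a retroviral vector expressing BCR::ABL1 p185, an oncogenic tyrosine kinase of acute lymphoid leukemia. The label gives the cells as Pre/Pro-B-cells, and the lines grew in RPMI medium with 10% FCS. All 3 lines shared genotype, oncogene and culture, the Cdk6 wildtype and knockout lines of the study were not analysed here, and no difference between genotypes was computed. Each line was sequenced as 1 library, so the SD between lines holds both the difference between lines and the technical error, and gene counts do not show the mutated base. Whether the lines came from separate animals is not given in the sources used here. The p-values set the counts of these libraries against counting error alone and hold no estimate of variation between lines or animals. In bulk RNA, fewer cells expressing a gene and less RNA per cell cannot be told apart.

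Libraries held between 19633463 and 25773221 counts, and 13974 genes had at least 10 counts over the 3 lines. All 14 B-lymphoid markers were among them, with summed levels of 4401 to 4901 CPM (counts per 1000000 of the TMM-scaled library size). The most variable of them was Rag1, a recombinase gene of precursor lymphocytes, at 22.4, 91.5 and 32.4 CPM. Of the T cell markers, 5 of 6 had 3 counts or fewer in every line, with Cd3e, Cd3g and Cd8a at 0, while Lck, which precursor B cells can also express, took 24.3 to 50.6 CPM. The 5 stromal markers had 0 counts, and the 8 myeloid markers summed to between 1.75 and 3.97 CPM. The markers thus went with the B-lymphoid label.

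The promoters of the INK4/ARF locus are shown because 3 start sites within a short stretch of chromosome 4 give the most and the least abundant detected inhibitor. In GRCm38 (mm10) and Gencode M21, Cdkn2a lies on the minus strand at chr4:89274471-89294653 and Cdkn2b on the same strand at chr4:89306299-89311039, with 11.6 kb between them. The first exon of the p16Ink4a transcript spans chr4:89281986-89282192 and that of the p19Arf transcript chr4:89294334-89294653, and the starts lie 12.5 kb apart. The 200 bases before each annotated start, from RefSeq promoter windows of the same assembly, are printed on the minus strand at chr4:89282193-89282392, chr4:89294654-89294853 and chr4:89311040-89311239. Capitals mark matches on either strand to the searched letters TTTNNCGC (E2F) and GGGCGG (SP1).
Cdkn2a, p16Ink4a start: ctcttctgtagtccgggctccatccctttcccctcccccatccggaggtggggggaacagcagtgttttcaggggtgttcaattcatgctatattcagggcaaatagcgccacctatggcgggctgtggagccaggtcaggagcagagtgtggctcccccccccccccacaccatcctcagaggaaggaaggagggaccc
Cdkn2a, p19Arf start: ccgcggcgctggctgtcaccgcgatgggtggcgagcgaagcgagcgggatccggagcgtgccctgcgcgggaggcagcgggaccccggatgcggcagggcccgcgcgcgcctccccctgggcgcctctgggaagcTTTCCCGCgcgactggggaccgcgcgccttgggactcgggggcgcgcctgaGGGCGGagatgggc
Cdkn2b: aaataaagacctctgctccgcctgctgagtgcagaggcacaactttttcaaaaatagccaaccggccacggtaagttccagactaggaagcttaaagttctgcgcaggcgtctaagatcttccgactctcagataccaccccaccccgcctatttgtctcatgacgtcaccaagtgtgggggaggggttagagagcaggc

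The stretch before the p19Arf start held 31 CpG dinucleotides, that before Cdkn2b held 8 and that before the p16Ink4a start held 4. In its full RefSeq window of 300 bases, which runs past the start, the p19Arf promoter had 45 CpG, more than 98.1% of the 32851 promoter windows of the genome, whose median was 7. Windows matched 6 of the 7 inhibitors, with 9 windows in all and none for Cdkn1c. The E2F letters occurred once in each of the 2 Cdkn2a windows and in no window of the other members, against 5.17% of all windows. The SP1 letters occurred in 7 of the 9 windows and in 35.7% of all windows, and CCAAT (NFY) occurred in 4 of the 9 and in 37.4% of all windows. None of the E2F or SP1 matches of the p16Ink4a and Cdkn2b windows lay within the 200 bases printed. None of the 9 windows held CCGGAAG (ETS), GCATGCGC (NRF-1), TTCNNNGAA (STAT) or GTAAACA (FOXO) on either strand, which 8.86%, 2.71%, 8.3% and 3.65% of all windows held. Motifs were counted separately, also where they overlap. A match describes letters in a window and is not a measured site.

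The p27Kip1 gene Cdkn1b, on chr6:134920401-134925513 of the plus strand, had the most CCAAT matches, 3 in its window. Its upstream 200 bases at chr6:134920201-134920400 are shown as the CIP/KIP counterpart of the locus above, with capitals for CCAAT and GGGCGG.
Cdkn1b: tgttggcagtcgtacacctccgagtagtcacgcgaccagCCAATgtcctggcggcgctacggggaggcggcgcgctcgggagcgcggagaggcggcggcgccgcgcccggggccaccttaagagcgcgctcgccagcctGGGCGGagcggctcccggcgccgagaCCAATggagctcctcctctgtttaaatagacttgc

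Cdkn2a was by far the most abundant inhibitor. It took 5107, 5510 and 5995 counts in lines 1, 2 and 3, which gave 235, 279 and 235 CPM (250 ± 25.3, SD, n = 3). Line 2 stood above the other two, which had the same level. Per kb of annotated exon, the scale on which genes can be compared, Cdkn2a reached 201, 238 and 201 CPM per kb (213 ± 21.6), above 99.2% of the genes kept. The SD of its log2(CPM + 1) values was 0.14, and 41.8% of the genes kept had a smaller one, while without line 2 it was 0.00. Of the exon bases of the gene, 575, or 49.1%, belonged to both annotated transcripts, 277 to the p16Ink4a transcript alone and 320 to the p19Arf transcript alone. Counts per gene therefore cannot tell p16Ink4a from p19Arf.

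Cdkn2b, which encodes p15Ink4b, a close relative of p16Ink4a, was near the bottom. Lines 1, 2 and 3 held 37, 106 and 59 counts, or 1.71, 5.37 and 2.32 CPM (3.13 ± 1.96, SD, n = 3). Line 2 was again the highest, and lines 1 and 3 were low. The ratio of Cdkn2a to Cdkn2b per kb was 164, 61.6 and 121 (115 ± 51.2, SD, n = 3). The SD of log2(CPM + 1) was 0.65, the widest of the 7 genes, and 92.5% of the genes kept had a smaller one. Without line 2 the mean was 2.01 CPM and the SD 0.21.

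The other genes of the neighbourhood had separate levels. Mtap, a methionine salvage enzyme 93.4 kb from Cdkn2a, had 215, 210 and 257 CPM. It was highest in line 3, unlike Cdkn2a and Cdkn2b. Ifne had 0 counts, and Dmrta1, on the far side of Cdkn2b, had 1, 0 and 1 count.

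**Figure D1:**
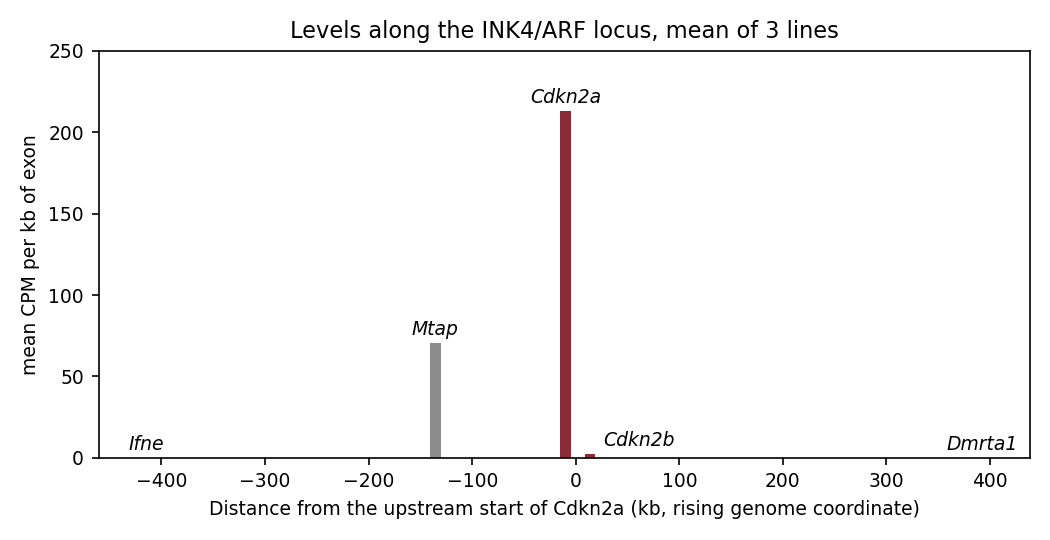
Mean CPM per kb of exon over the 3 lines (linear axis) for Cdkn2a, Cdkn2b and the nearest protein-coding genes, placed by the distance of the gene's midpoint from the upstream start of Cdkn2a in kb. Cdkn2a stands at 213 and Mtap at 70.5, while the bar of Cdkn2b, at 2.25, is barely above the axis and Ifne and Dmrta1 are at or near 0.

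Cdkn2c and Cdkn2d formed a middle pair. Cdkn2c (p18Ink4c, chr4:109660876-109667189, minus strand), which restrains CDK4/6 in lymphoid cells, had 53.5, 51.6 and 38.9 CPM (48.0 ± 7.95, SD, n = 3) from 1162, 1019 and 991 counts. Line 3 was the low one. Cdkn2d (p19Ink4d, chr9:21288410-21291407, minus strand), an INK4 protein whose abundance varies with the cell cycle, had 22.9, 23.5 and 30.2 CPM (25.5 ± 4.01, SD, n = 3) from 498, 464 and 768 counts. Here line 3 was the high one. Per kb of exon their ranges overlapped, at 14.5 to 19.9 for Cdkn2c and 14.6 to 19.2 for Cdkn2d.

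Kri1, a ribosome biogenesis factor which lies 0.441 kb from Cdkn2d on the same strand, was also highest in line 3, at 111, 103 and 127 CPM. Atg4d, 10.6 kb away, had 30.6, 30.5 and 41.8 CPM, with line 3 again on top, as it was for the low Ap1m2 (0.737, 1.22 and 2.55 CPM). Slc44a2, 29.3 kb away, had 172, 194 and 193 CPM and was not highest in line 3. Of all genes kept, 37.0% were highest in line 3. Faf1, 9.40 kb from Cdkn2c, had 123, 115 and 125 CPM and was not low in line 3.

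Of the CIP/KIP genes, Cdkn1b was the most abundant. It had 438, 703 and 708 counts, or 20.2, 35.6 and 27.8 CPM (27.9 ± 7.72, SD, n = 3). Line 2 was the highest, line 3 lay between and line 1 was the lowest. Its SD of log2(CPM + 1), 0.40, was wider than that of 82.6% of the genes kept, and was 0.24 without line 1. Ddx47, an RNA helicase gene 86.1 kb away and the best expressed of its 4 nearest neighbours, had 131, 148 and 137 CPM. The ratio of Cdkn1b to Cdkn1a per kb was 1.50, 3.86 and 2.63 in lines 1, 2 and 3. With main transcript lengths it was 0.878, 2.26 and 1.54, so that which of the genes was higher in line 1 depended on the length. On both scales line 1 had the lowest ratio, with the least Cdkn1b and the most Cdkn1a.

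Cdkn1a (p21Cip1, chr17:29090976-29100727, plus strand) is the classic p53 target among the inhibitors. It had 228, 142 and 210 counts, or 10.5, 7.20 and 8.25 CPM (8.65 ± 1.69, SD, n = 3). Line 1 was high, and lines 2 and 3 lay close together. Of the 50-base stretches of its transcripts, 10.5% also occurred in another annotated gene, AC167363.2, so its counts depend on how shared reads were treated.

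Cdkn1c (p57Kip2, chr7:143458339-143461050, minus strand), an imprinted inhibitor, had 0, 0 and 2 counts. Line 3 therefore read 0.0785 CPM, under the 0.118 CPM that 3 counts give there. On the same 3 counts, a count of 0 allows up to 0.138 CPM in line 1 and 0.152 CPM in line 2. Cdkn1c was not detectable above this depth limit, and it entered no test. Its imprinted neighbours Kcnq1 and Phlda2 had 0 counts in every line, and the antisense gene Gm44732, which overlaps it and shares 26.8% of its 50-base stretches, also had 0.

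**Figure D2:**
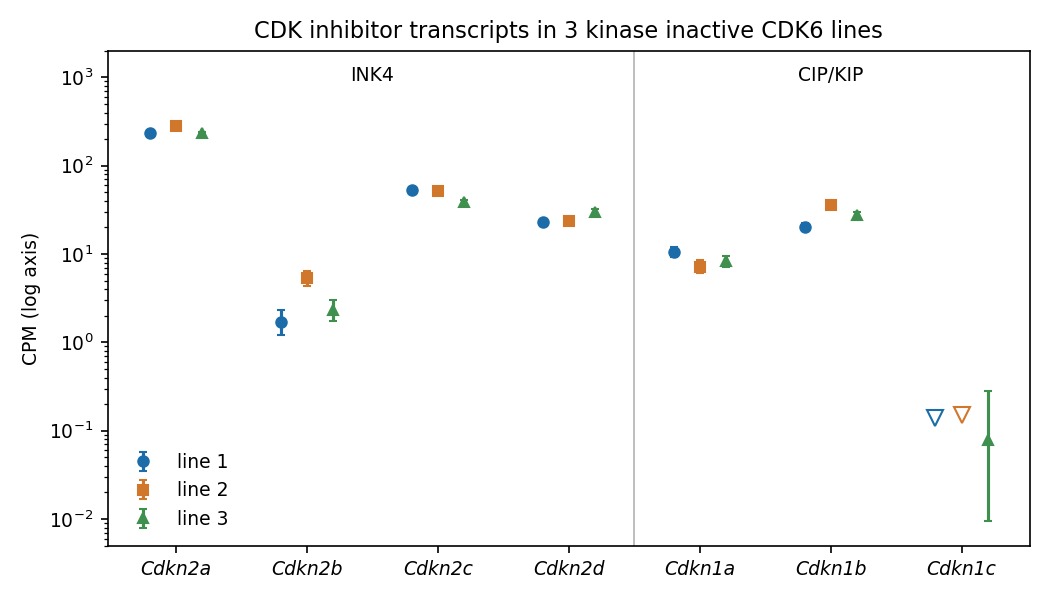
CPM on a log axis for the 7 inhibitors in lines 1, 2 and 3, with 95% exact Poisson intervals that cover counting error only. Open triangles mark 0 counts and stand at the level of 3 counts. Cdkn2a lies between 235 and 279 CPM, the detected members span down to 1.71 CPM for Cdkn2b, and Cdkn1c is at the depth limit.

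Per kb of exon the order was Cdkn2a, Cdkn2c, Cdkn2d, Cdkn1b, Cdkn1a, Cdkn2b and Cdkn1c. Cdkn2a exceeded Cdkn2c 11.9-fold by the ratio of means, and their ranges were far apart. Cdkn2c and Cdkn2d did not separate (ratio of means 1.10), nor did Cdkn1a and Cdkn2b (1.08). Without line 3, however, the ranges of Cdkn2c and Cdkn2d were apart (ratio 1.33), as were those of Cdkn1a and Cdkn2b without line 2 (ratio 1.82). Cdkn2d stood 2.65-fold above Cdkn1b with ranges apart. Cdkn1b stood 2.51-fold above Cdkn1a on this scale. With the length of the main coding transcript in place of all annotated exons, Cdkn1a read 4.16 instead of 2.43 CPM per kb, the ratio of Cdkn1b to Cdkn1a fell to 1.47, and their ranges overlapped. The place of Cdkn1a between Cdkn1b and Cdkn2b therefore depended on the length used. Of the members, only Cdkn1a and Cdkn2b had another identifier version in Gencode M21 than in the counts. Their lengths may therefore differ from those of the gene models counted.

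Summed over the 7 genes, inhibitor transcripts came to 244, 286 and 245 CPM per kb. Cdkn2a made up 82.3%, 83.3% and 82.1% of this sum (82.6 ± 0.619, SD, n = 3). The INK4 genes together took 96.7% ± 0.244 and the CIP/KIP genes 3.31% ± 0.244. Without Cdkn2a, the INK4 sum was 35.7, 38.0 and 35.3 CPM per kb (36.4 ± 1.46), against 8.57 ± 1.23 for the CIP/KIP genes. Each of Cdkn2b, Cdkn2c and Cdkn2d was called between lines. Their sum was not tested, so its spread cannot be set against these calls.

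The lines were then compared, to ask which inhibitors differed among lines of 1 genotype. A chi-square test of the counts against the scaled library sizes, Benjamini-Hochberg adjusted over all genes, called 6 of the 6 members tested, beside 66.8% of the 13974 genes. Among genes with a mean of at least 5 CPM, 80.1% were called. At this depth most genes differ by this test, so the count says little about the inhibitors. The test compares 3 libraries and covers counting error only. The size of the differences was taken from the spread. The 6 members had a median SD of 0.25 in log2(CPM + 1), against 0.17 for all genes kept and 0.15 for genes with a mean of at least 5 CPM.

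Pairs of lines showed where each member differed. By an exact binomial test of 2 libraries (two-sided, Benjamini-Hochberg adjusted over all genes), 4 of 6 members were called between lines 1 and 2, beside 42.3% of all genes. Between lines 1 and 3, 4 of 6 were called, beside 51.3%, and between lines 2 and 3, 5 of 6, beside 50.7%.

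Line 2 was the one with more INK4/ARF locus transcript. Cdkn2a was 1.19-fold higher in line 2 than in line 1 (95% interval 1.14 to 1.23, adjusted p = 1.8e-17, exact binomial test) and by the same factor than in line 3 (adjusted p = 7.3e-19, exact binomial test). Lines 3 and 1 had a ratio of 1.00 (0.964 to 1.04). Cdkn2b was 3.15-fold higher in line 2 than in line 1 (2.15 to 4.71, adjusted p = 1.5e-09, exact binomial test) and 2.32-fold higher than in line 3 (1.67 to 3.24, adjusted p = 6.9e-07, exact binomial test). The ratio of lines 3 and 1 for Cdkn2b was 1.36 (0.886 to 2.11) and missed the threshold. Both genes therefore lost their call over the lines when line 2 was left out, with adjusted p of 0.65 for Cdkn2a and 0.28 for Cdkn2b by the exact binomial test.

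Line 3 set apart the middle INK4 pair, in opposite directions. Cdkn2c was 1.38-fold higher in line 1 than in line 3 (1.26 to 1.50, adjusted p = 9.8e-13, exact binomial test), and Cdkn2d was 1.31-fold higher in line 3 than in line 1 (1.17 to 1.47, adjusted p = 6.9e-06, exact binomial test). Lines 1 and 2 gave ratios of 1.04 (0.953 to 1.13) for Cdkn2c and, as line 2 over line 1, 1.02 (0.901 to 1.16) for Cdkn2d. Without line 3 only this pair of lines remained, and neither gene was called, with adjusted p of 0.51 and 0.86 by the exact binomial test.

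Line 1 was lowest for Cdkn1b and highest for Cdkn1a, and for Cdkn1b the 3 lines formed a graded series. Cdkn1b was 1.76-fold higher in line 2 than in line 1 (1.56 to 1.99, adjusted p = 4.8e-20, exact binomial test) and 1.38-fold higher in line 3 than in line 1 (1.22 to 1.56, adjusted p = 4.8e-07, exact binomial test). Lines 2 and 3 also differed for Cdkn1b, by 1.28-fold (1.15 to 1.42, adjusted p = 1.4e-05, exact binomial test). It was the member called in all 3 pairs of lines, and so stayed called without any 1 line. Cdkn1a went the other way. It was 1.46-fold higher in line 1 than in line 2 (1.18 to 1.81, adjusted p = 0.0014, exact binomial test) and 1.27-fold higher than in line 3 (1.05 to 1.54, adjusted p = 0.027, exact binomial test). The latter call was lost with no filter on low counts (adjusted p = 0.056, exact binomial test). Without line 1 only the pair of lines 2 and 3 remained, and Cdkn1a was not called (adjusted p = 0.33, exact binomial test).

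**Figure D3:**
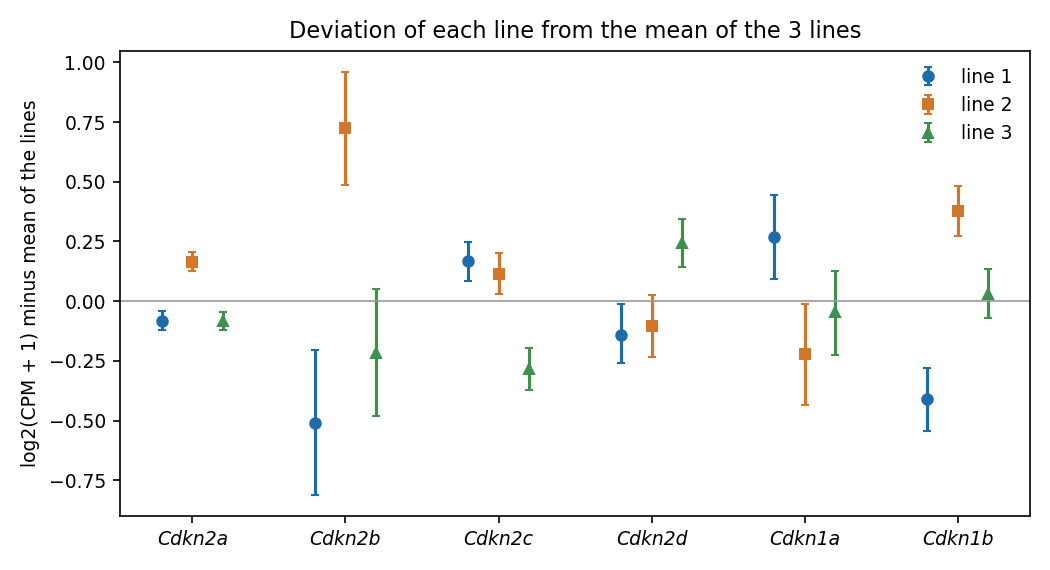
Log2(CPM + 1) in each line minus its 3-line mean, for the 6 inhibitors tested, with 95% exact Poisson intervals that cover counting error only. Line 2 is high for Cdkn2a (0.16), Cdkn2b (0.73) and Cdkn1b (0.38), line 3 is low for Cdkn2c (-0.28) and high for Cdkn2d (0.24), and line 1 is low for Cdkn1b (-0.41) and high for Cdkn1a (0.27).

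The kinases and cyclins that the inhibitors bind set the scale for these levels. Of 13 such genes, 12 were kept, 11 were called over the lines, beside 66.8% of all genes kept, and Ccna1 had 0 counts. Cdk4, the main INK4 target besides Cdk6, had 570, 619 and 617 CPM, or 185 ± 8.48 CPM per kb of exon (SD, n = 3) and 293 per kb of its main transcript. Cdk6 had 450, 334 and 239 CPM, or 24.4 ± 7.53 CPM per kb with line 1 the highest and line 3 the lowest. Cdk2, a CIP/KIP target, had 147, 158 and 168 CPM, and Cdk1 had 248, 265 and 325 CPM.

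Cdkn2a transcripts were close in level to those of both its target kinases together. The ratio of Cdk4 plus Cdk6 to Cdkn2a, per kb of exon, was 1.03, 0.900 and 1.03 (0.988 ± 0.0764, SD, n = 3), and 1.20, 1.06 and 1.22 with main transcript lengths. Since only p16Ink4a binds these kinases and the counts do not separate it from p19Arf, the ratio covers both products of the gene. Cdkn2a exceeded Cdk6 by 6.25-, 9.97- and 11.7-fold per kb in lines 1, 2 and 3. Between lines 1 and 3 the Cdkn2a level was the same, and Cdk6 differed. Cdk2 exceeded Cdkn1b by 5.34-, 3.25- and 4.42-fold per kb, and by 13.8-, 8.39- and 11.4-fold with main transcript lengths. These are ratios of transcript levels and do not give protein ratios.

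Among the D-type cyclins, which the INK4 proteins displace from CDK4/6, Ccnd3 led with 1286, 1456 and 1567 CPM, and Ccnd2 followed with 724, 839 and 714 CPM. Ccnd1 was lower and uneven, with 21.1, 17.5 and 57.5 CPM. Its SD of log2(CPM + 1), 0.89, exceeded that of every inhibitor, and line 3 was the high one. Of the E-type cyclins, which activate CDK2, Ccne1 had 61.8, 62.6 and 102 CPM and Ccne2 73.9, 83.5 and 80.2 CPM. Of the A- and B-type cyclins, Ccna2 had 464, 471 and 435 CPM and Ccnb2 167, 190 and 166 CPM, and both were called. Ccnb1 was nearly even, at 85.4, 86.5 and 86.5 CPM, and was not called.

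**Figure D4:**
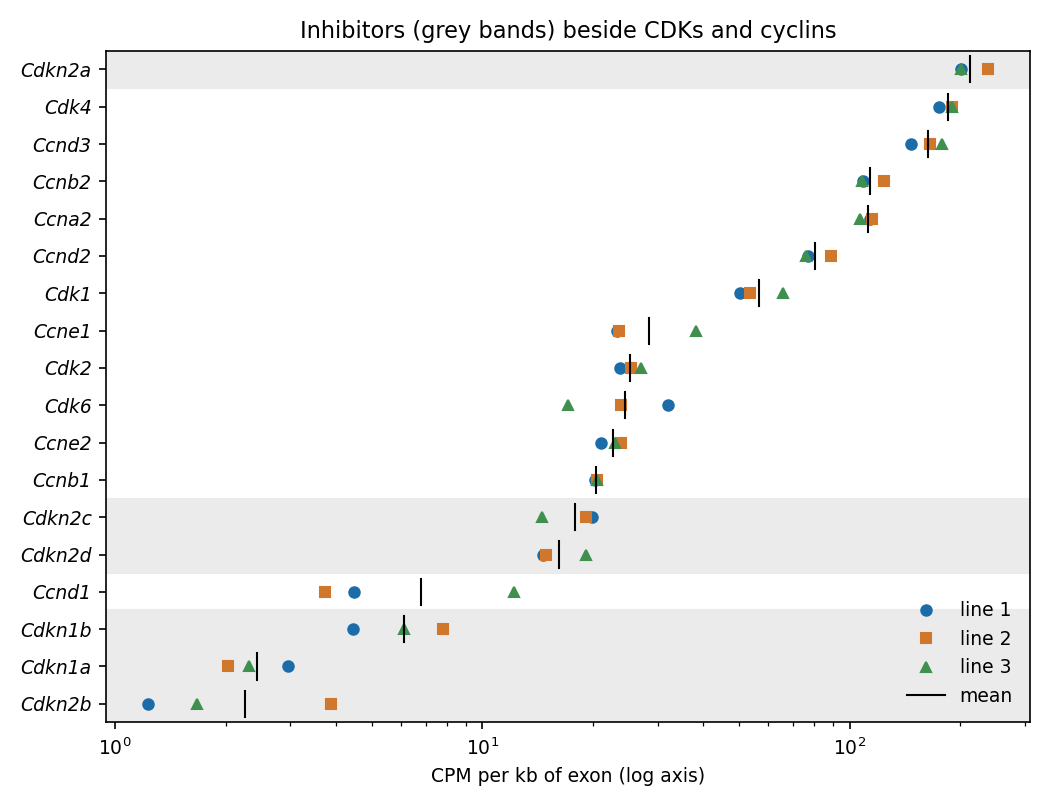
CPM per kb of exon on a log axis for the 6 detected inhibitors (grey bands) and 12 kinases and cyclins, with 1 point per line and a bar at the mean. Cdkn2a, at a mean of 213, stands beside Cdk4 at 185. Cdkn2c and Cdkn2d (17.9 and 16.2) lie below Cdk6 (24.4) by their means, with ranges that overlap its own. Cdkn1b, Cdkn1a and Cdkn2b (6.12, 2.43 and 2.25) close the order.

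Regulators of the INK4/ARF locus were broadly expressed. Of 21 genes, which include the Polycomb repressors of the locus, 19 were kept and 15 were called, beside 66.8% of all genes kept. The list had a median SD of log2(CPM + 1) of 0.15. The highest was Myc, an inducer of Arf, with 715, 659 and 553 CPM. The most variable was Ets1, an activator of p16Ink4a, with 97.8, 180 and 141 CPM. Ets1 was highest in line 2, where Cdkn2a and Cdkn2b were highest too, and over 3 lines such a match is a description only.

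The ARF/p53 list, which holds p53 targets, bears on Cdkn1a. Of 22 genes, 17 were kept and 14 called, beside 66.8% of all genes kept. The list had a median SD of 0.24. Npm1, which binds ARF in the nucleolus, was the highest at 1174, 1104 and 1132 CPM. Zmat3, an RNA-binding p53 target, was the most variable, at 27.2, 8.87 and 52.6 CPM. Of the 17 genes kept, 10 were lowest in line 2, as Cdkn1a was, while 30.5% of all genes kept were lowest in that line. Yet 10 of the 17 were highest in line 3 and 4 in line 1, where Cdkn1a was highest, and 37.0% and 31.2% of all genes kept had their highest level there. Trp53 itself had 188, 243 and 293 CPM and was lowest in line 1.

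**Figure D5:**
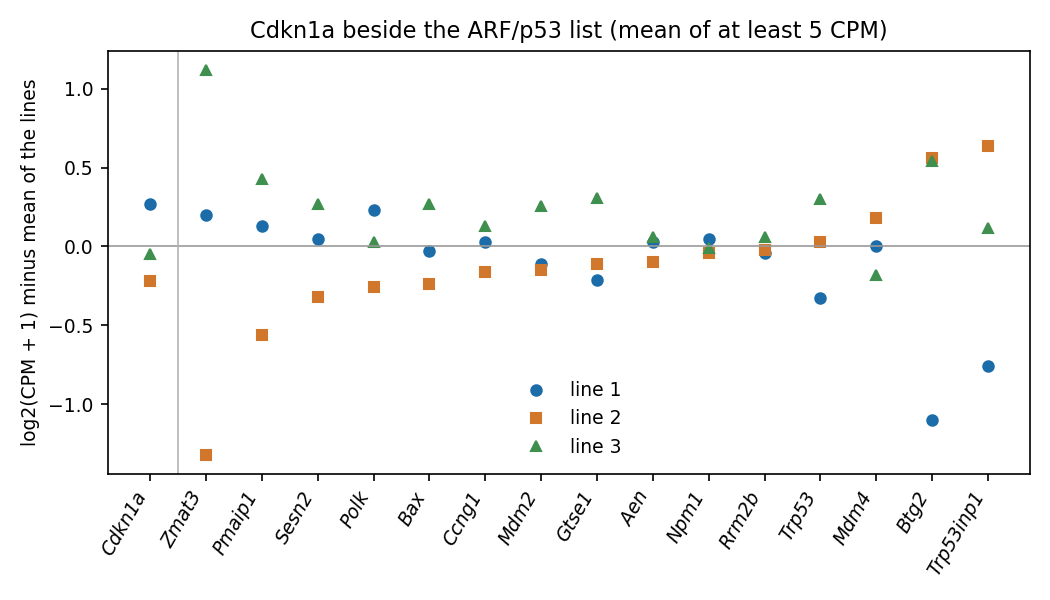
Log2(CPM + 1) in each line minus its 3-line mean, for Cdkn1a (left of the rule) and the genes of the ARF/p53 list with a mean of at least 5 CPM, ordered by line 2. Line 2 is the lowest line for Cdkn1a (-0.22) and reaches -1.32 at Zmat3, while at the right Trp53, Btg2 and Trp53inp1 are lowest in line 1 and Mdm4 in line 3.

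CIP/KIP protein levels also depend on degradation, which RNA does not show. All 13 genes of the ubiquitin ligase machinery for p21, p27 and p57 were kept and 10 were called, beside 66.8% of all genes kept. The list had a median SD of 0.14. Ddb1, an adaptor of the CUL4 ligase that degrades p21, had 971, 969 and 945 CPM. Dtl, the substrate receptor of the same ligase, was the most variable, with 175, 210 and 161 CPM, and was highest in line 2. That line had the least Cdkn1a transcript, and whether these go together was not tested.

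Of 14 transcription factors known to act on these genes, 13 were kept and all 13 were called, beside 66.8% of all genes kept. The list had a median SD of 0.17, the same as all genes kept. Ikzf1, a lymphoid factor, was the highest at 369, 330 and 354 CPM. Of the factors averaging 5 CPM or more, Klf6, an activator of Cdkn1a, was the most variable at 18.0, 40.6 and 41.3 CPM. It was lowest in line 1, where Cdkn1a was highest, and whether these go together was not tested. Below that mean, Gfi1, a repressor in blood cells, varied more, at 4.15, 8.06 and 0.432 CPM. Cebpa, a myeloid factor, had 0 counts.

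The RB pocket proteins, through which the inhibitors act, were all 3 kept and called, beside 66.8% of all genes kept. All 3 were lowest in line 1, beside 34.5% of all genes kept. Rbl1 (p107) led with 102, 145 and 116 CPM, and Rbl2 (p130) was the most variable with 36.5, 40.8 and 52.2 CPM. Of 15 proliferation genes, 14 were called, beside 66.8% of all genes kept. Line 1 was the lowest for 11 of the 15, beside 34.5% of all genes kept, and the highest for 0. Mki67, a marker of cycling cells, had 1200, 1355 and 1156 CPM, and Pcna, a replication clamp, 249, 331 and 314 CPM. Line 1, with the lowest level of most of these genes, also had the lowest Cdkn1b and the highest Cdkn1a, and whether these go together was not tested.

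Genes with the most similar pattern over the lines were sought among the 9389 other genes with a mean of at least 5 CPM, by the Euclidean distance of the 3 deviations in log2(CPM + 1). For Cdkn2a these were Rad54l, Dennd1c and Rtn4, and 663 genes lay within a distance of 0.1. For Cdkn2c they were Amz2, Supt16 and Qrsl1, with 203 genes that near, and for Cdkn2d Eif5, Notch1 and Ebpl, with 336. For Cdkn1a they were Sp110, Cog7 and Hivep3, with 107 genes that near. Cdkn1b had the sparsest surroundings, with 23 genes that near, led by Tnfrsf1b (40.6, 69.7 and 56.8 CPM), Anxa6 (73.8, 134 and 101 CPM) and Nkd1. Over 3 lines a pattern has few shapes, and nearness is a description of these libraries.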

How the data were processed

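RNA-seq of stable BCR::ABL1+ Cdk6 KM/KM lines was analysed (n = 3 lines, 1 library each). Per the labels and the study's methods, the authors used Trimmomatic for trimming, STAR for alignment to mm10 and featureCounts with Gencode M13 for counting. The deposited values are raw counts of reads for each gene, not normalized. The strand setting and the treatment of reads with several matches are not given in the sources used here, and the labels and the study's methods name different library kits. The table holds 6 further sample columns, which were not used.

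Of the 50686 identifiers, 50376 were matched without version to Gencode M21, which uses the same assembly, for symbols, exon lengths and coordinates. Libraries held 21569845, 19633463 and 25773221 counts, so that 3 counts were worth 0.138, 0.152 and 0.118 CPM. Counting error is the only error in intervals and limits. CPM were computed on TMM-scaled library sizes (edgeR 4.0.16, R 4.3.3), log2 values with a pseudocount of 1 CPM. A gene was kept if its counts over the lines came to 10 or more. Homogeneity of counts was tested by chi-square over 3 lines and by exact binomial tests for pairs, Benjamini-Hochberg adjusted over all genes kept at a threshold of 0.05. With 1 library left out, counts of calls came from chi-square over the remaining pair, and the p-values printed from the exact binomial test, with the same calls of members. With 1 group of lines no model across groups was fitted, and all p-values compare libraries, not conditions. Tests were tried on simulated counts that held counting error only, which cannot show how they behave with further variation between libraries. Python 3.11.15 with scipy 1.17.1 was used.

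Members, gene lists and tests were chosen with earlier results of these data known. Named are all members, all listed kinases and cyclins, the highest and the most variable gene of each other list (by SD of log2(CPM + 1), among genes with a mean of at least 5 CPM), the nearest protein-coding genes, and the 3 nearest profiles. Lck, the markers at 0, Cebpa, Gfi1, Trp53, Mdm4, Btg2 and Trp53inp1 were named after their values were seen, as were the counts of lowest and highest lines. The values of 1 gene are not reported here. Promoter windows are those of RefSeq (250 bases before to 50 after a start). The alternatives tried were size factors from DESeq2 1.42.0, total counts as library size, no filter, a filter of 10 counts in each line, 0.1 CPM as pseudocount, main transcript length, and each line left out. Ratios between genes with main transcript length, and the order of levels with each line left out, were added after the data were seen.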

Additional observations from a re-analysis of the deposited data

How the results depend on the processing

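No paired analysis was possible because only 1 group of 3 unpaired lines was analysed. Under DESeq2 size factors, library size alone, no filter and at least 10 counts in every line, the 6 called members remained called. Of all genes tested, 66.7%, 67.1%, 45.3% and 74.6% were called in these settings. The alternative scalings shifted the libraries by at most 0.017 (log2). Leaving out each line in turn gave 4 to 5 members called instead of 6 and 6098 to 7267 of all genes instead of 9341. The lowest of these, 6098, came without line 3, with fewer libraries and fewer genes tested. Without lines 1, 2 and 3 in turn, 54.3%, 54.5% and 47.1% of the genes tested were called, instead of 66.8%. Between lines 1 and 3, no filter left 3 of 4 members called. With main transcript length, Cdkn2a read 279 and Cdkn1a 4.16 CPM per kb. The mean CPM of Cdkn2b was 2.01 without line 2, instead of 3.13, and Cdkn1c was at 0 without line 3. The SD of log2(CPM + 1) must fall when the outermost of 3 lines is left out, so a fall alone says little. It dropped from 0.14 to 0.00 for Cdkn2a and from 0.65 to 0.21 for Cdkn2b without line 2, from 0.25 to 0.04 for Cdkn2c and from 0.21 to 0.02 for Cdkn2d without line 3, and from 0.25 to 0.12 for Cdkn1a and from 0.40 to 0.24 for Cdkn1b without line 1. Low counts limit Cdkn1c and the pair tests of Cdkn2b and Cdkn1a.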
